A study of Mus musculus with 12 samples.

Results

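The 38 genes described here encode proteins of DNA replication and cell division, and they were taken from the 54193 genes to which the quantified transcripts could be assigned. They were chosen by name and with earlier results of these data known. Their shares, set below against those of all tested genes, are therefore descriptive. Of them, 10 act in S phase, the replication of the genome. The other 28 are called mitotic here, after mitosis, the separation of the copies. Some of them, such as the chromatin protein *Hmgb2*, are not specific to mitosis. All 38 passed the filter on low counts, which asked for a normalized count of 10 or more on average, and their means ran from 69.2 to 1955. A normalized count is the sum of the estimated reads of the transcripts of a gene, scaled for library size.

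The RNA is labelled as that of the substantia nigra pars compacta (SNpc) of male mice at 1 week of age, cut out by laser microdissection, and each library was 1 mouse. There were 3 libraries in each of 4 groups. OF1 WT (SW31, SW7, SWG) and OF1-*En1*+/- (SW21, SW22, SWB) mice were of the outbred SwissOF1 strain. C57 WT (C5710, C572S, C5743) and C57-*En1*+/- (C5713, C572, C575) mice were of the inbred strain C57Bl/6j. The hemizygous mice carried 1 null allele of the homeobox gene *En1*, made by inserting *lacZ*, in every cell of the body, and the C57 line was derived from the OF1 line by backcrossing, so alleles of the OF1 line near *En1* can remain in it. Values below are given in the order of the mice in these parentheses.

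Cells that divide copy their DNA in S phase and divide it in mitosis. The genes for the replication machinery are typically transcribed at the entry into S phase through E2F sites. Those for the mitotic machinery follow in G2 and mitosis through CHR elements, bound by the MuvB complex, often with CCAAT boxes, bound by NF-Y. Neurons no longer divide, while in the midbrain of mice in the first postnatal weeks precursors of oligodendrocytes, astrocytes, microglia and endothelial cells still do. In bulk tissue, fewer cells in division and less RNA per dividing cell cannot be told apart.

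These elements were looked for in the promoters of the 38 genes, because sequence took no part in choosing the genes. The window ran from 250 bases before to 50 bases after the start of the canonical transcript in GRCm39, and both strands were read. The letters searched were TTTGAA for the CHR element, CCAAT for the CCAAT box, and TTTCCCGC, TTTGGCGC, TTTCGCGC or TTTGCCGC for the E2F site, where matches on opposite strands may overlap. A CHR match was found in 15 of 28 mitotic promoters (53.6%), in 2 of 10 S phase promoters (20%) and in 17.1% of the promoters of 21757 protein-coding genes. An E2F match was found in 4 of 10 S phase promoters (40%), those of *Mcm3*, *Mcm4*, *Mcm5* and *Mcm6*, in 1 of 28 mitotic promoters (3.57%), that of *Cdk1*, and in 2.82% of all. CCAAT matches were in 21 mitotic (75%) and 7 S phase promoters (70%), against 39.9% of all, and 14 mitotic promoters (50%) held CHR and CCAAT matches, against 7.43% of all. A match is a stretch of letters and not a site shown to be bound.

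Below are the windows of *Ccnb2* (chr9:70328825-70329124, minus strand) and *Ube2c* (chr2:164611568-164611867, plus strand), the 2 mitotic genes with the smallest p between the OF1 genotypes, and of *Mcm3* (chr1:20890487-20890786, minus strand) and *Mcm6* (chr1:128287403-128287702, minus strand), an S phase gene whose OF1 genotypes did not overlap and one whose genotypes did. All are written 5′ to 3′ on the strand of the gene, with every match in capitals. The gene *Ccnb2* (ENSMUSG00000032218) spans chromosome 9 from 70314966 to 70328874, *Ube2c* (ENSMUSG00000001403) chromosome 2 from 164611768 to 164620742, *Mcm3* (ENSMUSG00000041859) chromosome 1 from 20870791 to 20890536 and *Mcm6* (ENSMUSG00000026355) chromosome 1 from 128259311 to 128287516. *Ccnb2* holds 2 CHR and 3 CCAAT matches, *Ube2c* 1 CHR and 6 CCAAT matches, *Mcm3* 3 CCAAT and 2 E2F matches, and *Mcm6* 2 CCAAT and 3 E2F matches.
Ccnb2: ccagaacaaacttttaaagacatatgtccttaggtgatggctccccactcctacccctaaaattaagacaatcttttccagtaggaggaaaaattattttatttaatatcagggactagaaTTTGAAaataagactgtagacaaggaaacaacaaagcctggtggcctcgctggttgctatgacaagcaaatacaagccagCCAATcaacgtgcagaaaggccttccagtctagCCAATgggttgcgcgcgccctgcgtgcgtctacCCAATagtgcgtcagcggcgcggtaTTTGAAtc
Ube2c: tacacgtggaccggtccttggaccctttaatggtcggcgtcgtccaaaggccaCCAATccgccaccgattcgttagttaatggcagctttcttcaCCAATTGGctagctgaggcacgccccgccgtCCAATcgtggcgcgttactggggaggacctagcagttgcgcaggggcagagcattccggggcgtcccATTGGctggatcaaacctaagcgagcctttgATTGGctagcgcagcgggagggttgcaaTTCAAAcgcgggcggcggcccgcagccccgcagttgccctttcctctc
Mcm3: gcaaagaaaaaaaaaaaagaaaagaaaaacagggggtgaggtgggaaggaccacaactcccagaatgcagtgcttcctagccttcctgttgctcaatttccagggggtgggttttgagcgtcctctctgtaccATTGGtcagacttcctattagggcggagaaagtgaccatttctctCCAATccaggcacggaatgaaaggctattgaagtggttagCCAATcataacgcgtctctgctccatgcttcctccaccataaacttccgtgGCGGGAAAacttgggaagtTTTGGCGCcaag
Mcm6: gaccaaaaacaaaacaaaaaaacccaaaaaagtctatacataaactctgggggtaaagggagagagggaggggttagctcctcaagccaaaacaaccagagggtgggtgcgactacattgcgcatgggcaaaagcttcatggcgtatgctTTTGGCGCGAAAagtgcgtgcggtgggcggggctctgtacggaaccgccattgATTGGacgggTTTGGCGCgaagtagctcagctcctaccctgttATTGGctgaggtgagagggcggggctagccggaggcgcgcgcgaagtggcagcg

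The depth was 13538864 to 30927714 estimated reads in the 6 OF1 libraries and 20030280 to 168741283 in the 6 C57 libraries. The median of the unscaled estimated reads per gene over the 38 genes was 85.2 to 130 in WT and 136 to 277 in hemizygous OF1 libraries, and 543 to 1544 in WT and 177 to 428 in hemizygous C57 libraries, so counting error was largest in OF1 WT. Only SW7 had members without a read, *Bub1b* and *Kif20a*, and a count of 0 allows up to 3 reads. The labelled tissue was checked with *Th* and *Slc6a3*, the markers of dopaminergic neurons. *Th* was at 85968 in SW22 and 121821 in C572S but between 8.80 and 1447 in the other 10 libraries. Whether the same area was cut out in every library was not tested, and an unlike area and an unlike group cannot be told apart where they coincide. *En1* was at 0 in 4 libraries, 2 of OF1-*En1*+/- and 2 of C57-*En1*+/- mice. It was at 691 in SW22 and 1071 in C572S, and between 0.871 and 15.2 in the rest. Most of these values were too low to check the genotype labels. *Xist* was at 1330.5 and the Y-linked *Ddx3y* at 0 in C572, which goes against its label as male. Medians of the S phase and mitotic genes without SW22, C572S or C572 are given beside each comparison that holds the library.

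The genes were lowest in OF1 WT mice. The mean of the OF1 WT group was the lowest of the 4 group means for 35 of 38 genes, as it was for 27.5% of all 18017 tested genes, and that of C57-*En1*+/- was the highest for 28, as it was for 24.7% of all. The latter count rests in part on C572, since without it the mean of C57-*En1*+/- was the highest for 19 genes (21.5% of all), and without C5710 for 21 (25.1% of all). The former was 33 to 36 with any 1 of the 12 libraries left out. Within OF1 WT, SWG was the lowest of the 12 libraries for 17 genes and SW7 for 14. C572 was the highest for 19 genes, 17 of them mitotic.

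**Figure D1:**
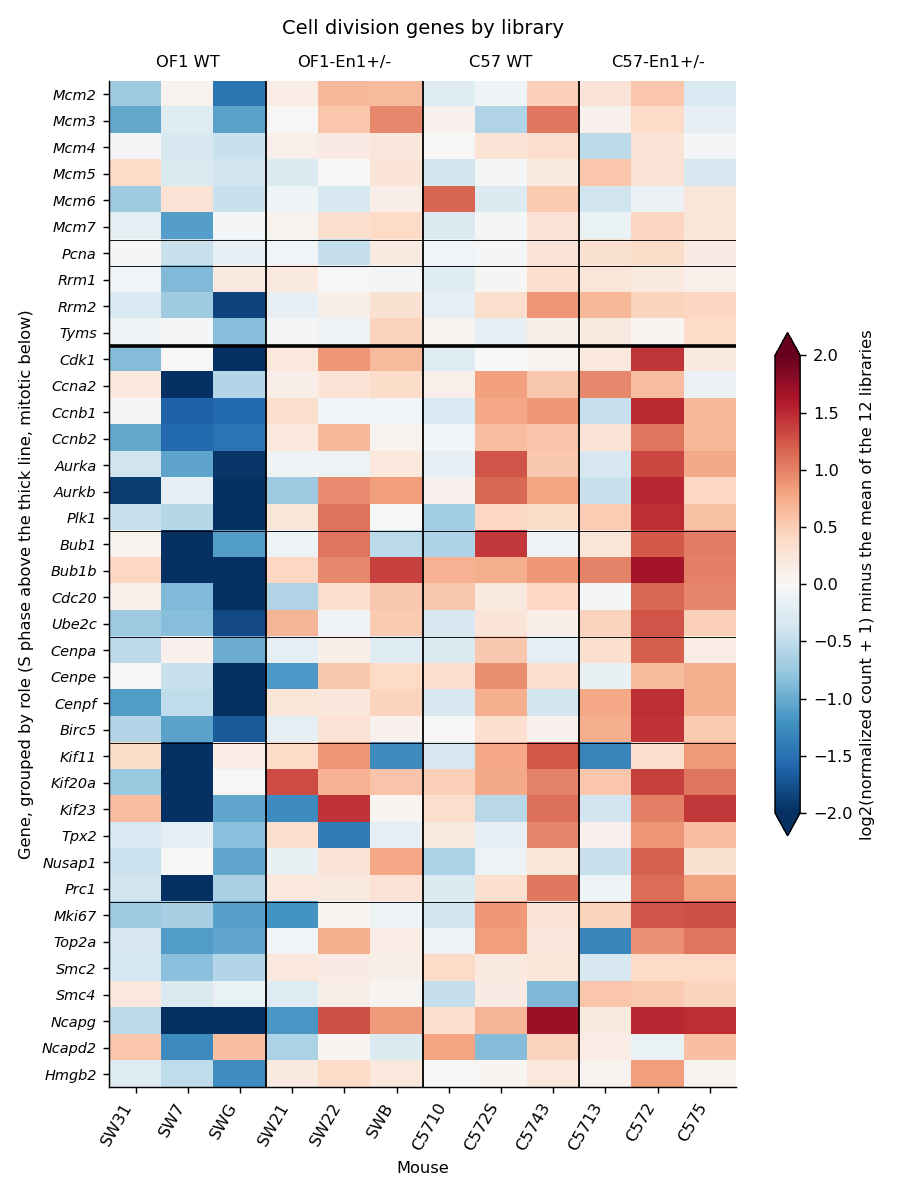
Each row is 1 gene and each column 1 library; the colour is log2(normalized count + 1) minus the mean of the gene over the 12 libraries, from blue (lower) to red (higher), and values past 2 take the end colours. The blue of the mitotic genes lies in OF1 WT mice SW7 and SWG and the deepest red in C572, while the S phase rows are paler.

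S phase and mitotic genes were then set against each other in each library. As the mean log2 CPM (counts scaled to a common library size) of its 10 genes, the S phase level was 3.92, 3.83 and 3.55 in WT and 4.18, 4.29 and 4.54 in hemizygous OF1 mice, and 4.19, 4.14 and 4.64 in WT and 4.32, 4.48 and 4.27 in hemizygous C57 mice. The mitotic level, the mean log2 CPM of its 28 genes, was 2.27, 1.08 and 1.22, 2.50, 3.02 and 2.80, 2.56, 3.06 and 3.04, and 2.67, 3.67 and 3.27 in the same order. All 3 OF1 WT libraries were below the other 9 on both measures, and those 9 overlapped between groups. The mitotic minus the S phase level was −2.24 ± 0.55 (SD, n = 3) in WT and −1.57 ± 0.26 in hemizygous OF1 mice, and −1.43 ± 0.30 in WT and −1.15 ± 0.44 in hemizygous C57 mice. In OF1 WT it ran from −2.75 to −1.65 and in OF1-*En1*+/- from −1.74 to −1.27, so the groups overlapped, with SW31 inside the range of OF1-*En1*+/-.

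The difference between the levels depended on the scale. Relative to OF1 WT, the mitotic minus the S phase level was higher by 0.68 for OF1-*En1*+/-, 0.81 for C57 WT and 1.09 for C57-*En1*+/- in log2 CPM. On log2(TPM + 1), which damps low genes such as the mitotic ones, these differences were 0.18, 0.18 and 0.52. TPM, the other unit of the files, takes transcript length into account. The summed TPM of the mitotic genes per summed TPM of the S phase genes was 0.812, 0.754 and 0.532 in WT and 1.08, 1.29 and 0.939 in hemizygous OF1 mice, and 0.841, 1.17 and 0.902 in WT and 0.954, 1.69 and 1.20 in hemizygous C57 mice. All 3 OF1 WT libraries had the lowest ratios of the 12. The highest was that of C572. *Pcna* alone held on average 49.9 of 114 summed S phase TPM in WT and 56.2 of 154 in hemizygous OF1 mice. In C57 mice it held 67.7 of 175 in WT and 65.7 of 159 in hemizygous mice. The copy *Pcna-ps2*, described below and read almost only in OF1 mice, was not in the sum.

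**Figure D2:**
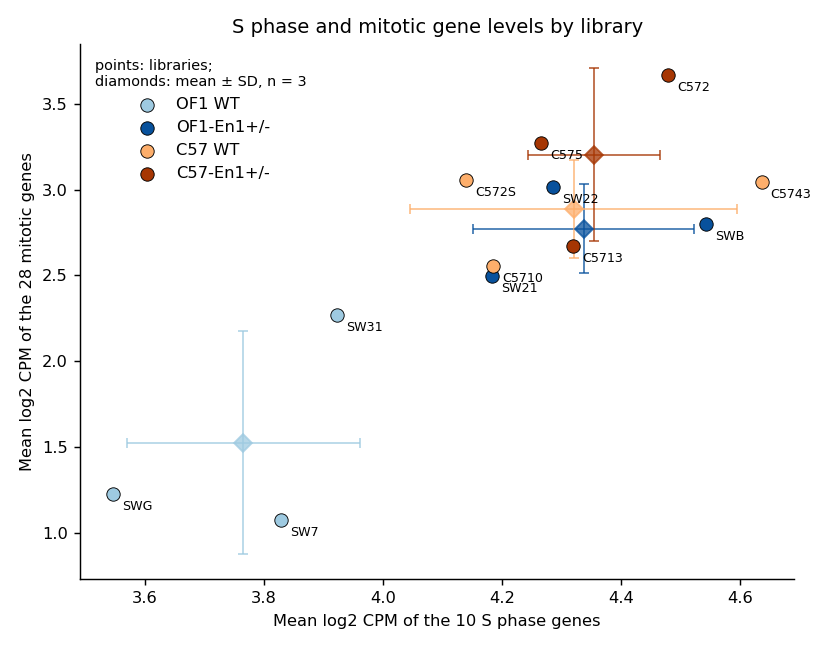
Each point is 1 library, with the mean log2 CPM of the 10 S phase genes on the x axis and of the 28 mitotic genes on the y axis; diamonds and bars are the group means ± SD (n = 3). The 3 OF1 WT libraries lie lowest on both axes, and the other 3 groups overlap.

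The first comparison was of OF1-*En1*+/- with OF1 WT mice. Estimates were higher in OF1-*En1*+/- mice for 37 of 38 genes (49% of all tested genes), with a median log2 fold change of 0.94 against −0.01 over all tested genes. The S phase genes had a median of 0.42 (10 of 10 higher) and the mitotic genes of 1.01 (27 of 28 higher, all but the condensin subunit *Ncapd2*). None of the 38 passed the adjusted threshold in edgeR (smallest adjusted p 0.444), and none of the 18017 tested genes did (0% called), nor in limma voom. At an unadjusted p under 0.05, edgeR gave 15 of 38 higher (39.5%, against 4.7% of all tested genes) and 0 lower. DESeq2, fitted to the same counts, called 2 genes, *Ccnb2* and *Ube2c*, both higher (5.26%, against 0.611% of all). In 18 genes (47.4%, against 7.68% of all) every OF1-*En1*+/- library was above every OF1 WT library.

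The counts depended on single libraries. Here and below, the share of all tested genes past a p threshold was not computed with libraries left out. Those counts show only how the members moved and are not set against all genes. Without SWG, DESeq2 called 0 of the 38 and edgeR had 6 at an unadjusted p under 0.05. Without SW22 or SWB the latter were 7 and 9. Without SW7, DESeq2 called 7, and without SW31 it called 4. Without SW21 or SWB, it called *Ccnb2* only. Without SW22 the median of the mitotic genes was 0.88 and that of the S phase genes 0.47. With SW22 and C572S left out together DESeq2 called *Ube2c* only, edgeR had 5 at an unadjusted p under 0.05, and 19 of 38 did not overlap, against 12.8% of all genes for 2 libraries against 3. Over the alternatives run, the median of the mitotic genes stayed between 0.81 and 1.45 and that of the S phase genes between 0.34 and 0.55.

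Markers of other cells also had unlike levels in the OF1 genotypes. The summed TPM of 11 endothelial markers was 81.6 to 198 in OF1 WT and 180 to 319 in OF1-*En1*+/- mice, with 10 of 11 higher. Precursors of oligodendrocytes (10 markers, 8 higher) had 95.1 to 134 and 148 to 176, and myelinating oligodendrocytes (9 markers, 8 higher) 377 to 837 and 1148 to 2261, so that in neither did the sums overlap. Microglia (11 markers measured, 10 higher) had 179 to 231 and 200 to 344. None of the markers of endothelial cells, precursors of oligodendrocytes and microglia was at 0 in a library. Astrocytes (9 markers, 7 higher) had 1123 to 1342 and 1084 to 2378. Pericytes, mural cells and fibroblasts (13 markers, 10 higher) had 31.6 to 54.1 and 45.0 to 83.9. Neural progenitor markers, of which 5 of 8 tested were higher and 3 lower, had 40.9 to 74.2 and 67.4 to 147, with *Eomes* at 0 in all 6 OF1 libraries. Dopaminergic markers (13 markers, 11 higher) had 47.7 to 66.5 in WT, and 53.2, 6866 and 69.4 in SW21, SW22 and SWB. Red blood cell markers were estimated lower (5 of 5 tested), with sums of 807, 5454 and 775 in WT and 3584, 2289 and 1108 in hemizygous mice. That direction rests on SW7, since SW31 and SWG were below every OF1-*En1*+/- library. Of the ependymal markers 2 were higher and 3 lower, with sums of 7.33 to 14.4 and 7.06 to 12.1. Markers of subthalamic and posterior hypothalamic neurons, which lie beside the SNpc, were lower, at 902 to 3246 against 97.9 to 564, with 9 of 9 lower and 3 called by DESeq2 (0.511% of all tested genes were called lower). Whether an unlike area was cut out was not tested. Their part in the differences of the division genes was not tested.

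Among the kinases and cyclins of mitosis, all 7 estimates were higher in OF1-*En1*+/- mice and 4 had an unadjusted p under 0.05, against 4.7% of all tested genes. *Ccnb2*, a mitotic cyclin and partner of Cdk1, had 73.1, 50.3 and 53.3 in WT and 173, 235 and 156 in hemizygous OF1 mice, and 143, 229.8 and 224 in WT and 181, 315 and 237 in hemizygous C57 mice. The OF1 WT values lay below the other 9, with a mean of 58.9 ± 12.4 (SD, n = 3) against 188 ± 41.4 in OF1-*En1*+/- mice. These gave a log2 fold change of 1.68 ± 0.39 (± standard error, here and below), with an adjusted p of 0.444 in edgeR and 0.00632 in DESeq2. *Cdk1*, the kinase that drives entry into mitosis, had 163, 296 and 52.2 in WT and 345, 544 and 463 in hemizygous OF1 mice, and 249, 298 and 312 in WT and 344, 799.5 and 341 in hemizygous C57 mice. SWG was far below the other OF1 WT libraries, yet the OF1 groups did not overlap (1.40 ± 0.55, edgeR adjusted p = 0.494). *Ccnb1*, the other B-type cyclin of mitosis, had 387, 129 and 134 in WT and 495, 381 and 383 in hemizygous OF1 mice, and 320.2, 676 and 727 in WT and 289, 1114 and 625 in hemizygous C57 mice. SW31 was within the OF1-*En1*+/- range (0.97 ± 0.54, edgeR adjusted p = 0.61). The mitotic kinases *Plk1* (1.50 ± 0.62), *Aurkb* (1.70 ± 0.72) and *Aurka* (1.04 ± 0.54), and cyclin A2 (*Ccna2*, 0.92 ± 0.65), were estimated higher as well, with standard errors above that of *Ccnb2*.

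The checkpoint and anaphase genes were also estimated higher in 4 of 4 cases. *Ube2c*, the ubiquitin-conjugating enzyme of the anaphase-promoting complex, had 219, 201 and 104 in WT and 583, 349 and 524 in hemizygous OF1 mice, and 292, 436 and 399 in WT and 503, 877 and 507 in hemizygous C57 mice. Every OF1 WT library was below the other 9 (1.48 ± 0.37, adjusted p = 0.444 in edgeR and 0.0209 in DESeq2). *Bub1* and *Bub1b*, kinases of the spindle checkpoint, and *Cdc20*, an activator of the anaphase-promoting complex, had estimates of 1.18 ± 0.74, 2.01 ± 1.07 and 0.96 ± 0.61. *Bub1b* was at 0 in SW7, 18.9 in SWG and 137 in SW31, against 137, 200 and 268 in OF1-*En1*+/- mice.

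Of the centromere genes, *Birc5* (survivin, of the chromosomal passenger complex) had 113, 80.7 and 52.2 in WT and 149.6, 207 and 180.1 in hemizygous OF1 mice, and 171, 214 and 180.3 in WT and 283, 465 and 244 in hemizygous C57 mice, without overlap between the OF1 groups (1.13 ± 0.40, edgeR adjusted p = 0.465). *Cenpf*, a kinetochore protein, had 51.9, 79.5 and 22.2 in WT and 134, 133 and 154 in hemizygous OF1 mice, and 91.0, 189 and 87.6 in WT and 195, 319 and 187 in hemizygous C57 mice, also without overlap (1.45 ± 0.53). The kinetochore motor *Cenpe* (0.73 ± 0.61) and the centromeric histone *Cenpa* (0.31 ± 0.41) overlapped. Among the spindle and midzone genes, the midzone bundler *Prc1* (1.18 ± 0.51) and the kinesin *Kif20a* (1.83 ± 0.97) did not overlap. The kinesins *Kif11* and *Kif23*, *Nusap1* and the Aurora A activator *Tpx2* did, with estimates from 0.17 for *Tpx2* to 0.98 for *Kif23*.

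Genes of chromosome structure differed among themselves. *Smc2*, a core subunit of condensin, had 245, 175 and 209 in WT and 363, 353 and 340.0 in hemizygous OF1 mice, and 409, 359.6 and 370.4 in WT and 252, 416 and 414 in hemizygous C57 mice. Its OF1 WT values were the lowest of the 12 (0.75 ± 0.28, edgeR adjusted p = 0.481), while with offsets for transcript length the estimate was 1.44. In TPM, *Smc2* had 1.91, 1.28 and 1.92 in WT and 6.53, 2.77 and 5.09 in hemizygous OF1 mice, and 5.09, 2.92 and 2.63 in WT and 9.12, 6.44 and 7.19 in hemizygous C57 mice. In that unit the C57 genotypes did not overlap either, which they did in normalized counts. Its antisense neighbour *Smc2os* was at 3.87 to 52.8 in the unstranded libraries. *Hmgb2*, a DNA-bending chromatin protein, had 710.2, 595 and 357 in WT and 961, 1118 and 987 in hemizygous OF1 mice, and 846, 868 and 984 in WT and 889.9, 1524 and 896 in hemizygous C57 mice (0.89 ± 0.29, edgeR adjusted p = 0.448). *Top2a*, the topoisomerase that untangles chromosomes, had 219, 126 and 134 in WT and 268, 458 and 306 in hemizygous OF1 mice, and 259, 495 and 324 in WT and 112, 525 and 583 in hemizygous C57 mice, without overlap between the OF1 groups (1.11 ± 0.53). *Ncapg*, of condensin I, had 30.7, 3.51 and 4.44 in WT and 19.4, 109 and 81.1 in hemizygous OF1 mice, and 56.6, 71.8 and 149 in WT and 51.1, 129 and 125 in hemizygous C57 mice. Its values of 3.51 in SW7 and 4.44 in SWG rest on few reads, and its estimate of 2.52 ± 0.94 had one of the largest standard errors. The condensin core subunit *Smc4* (0.04 ± 0.31) and *Ncapd2* (−0.44 ± 0.49) overlapped.

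*Mki67*, the gene of the widely used proliferation antigen Ki-67, had 82.6, 86.5 and 64.4 in WT and 59.9, 142 and 128 in hemizygous OF1 mice, and 105, 251 and 165 in WT and 190.1, 332 and 334 in hemizygous C57 mice. SW21 was below all 3 OF1 WT libraries, and the estimate between the OF1 genotypes was 0.50 ± 0.46 (edgeR adjusted p = 0.772). Its 2 highest libraries were C572 and C575.

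Of the S phase genes, the subunits of the Mcm2-7 replicative helicase did not share 1 pattern. *Mcm3* had 127, 219.8 and 123 in WT and 259, 384 and 509 in hemizygous OF1 mice, and 278, 171 and 544 in WT and 278, 339.7 and 234 in hemizygous C57 mice. The OF1 groups did not overlap (1.29 ± 0.45, edgeR adjusted p = 0.465), and C572S lay inside the OF1 WT range. *Mcm2* had 236, 407 and 141 in WT and 428, 609 and 600.1 in hemizygous OF1 mice, and 326, 366 and 537 in WT and 462, 571 and 311 in hemizygous C57 mice, again without overlap in OF1 (1.06 ± 0.40, edgeR adjusted p = 0.487). *Mcm5* had 609, 376 and 355 in WT and 380.3, 460.4 and 552 in hemizygous OF1 mice, and 357, 456 and 521 in WT and 679, 566 and 364 in hemizygous C57 mice. Here SW31 was above every OF1-*En1*+/- library (0.06 ± 0.32), and the sign of the estimate turned when SW7, SWG or SWB was left out. *Mcm7* (0.64 ± 0.29) and *Mcm4* (0.42 ± 0.25) were above OF1 WT in every OF1-*En1*+/- library. *Mcm6* was not (0.14 ± 0.37).

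*Pcna*, the sliding clamp of the DNA polymerases and the most abundant of the 38, had 1864, 1418 and 1726 in WT and 1856, 1377 and 2172 in hemizygous OF1 mice, and 1849.5, 1903 and 2293 in WT and 2381, 2476 and 2149 in hemizygous C57 mice. The groups overlapped, with SW22 the lowest of all 12 libraries, and the estimate between the OF1 genotypes was 0.12 ± 0.20. A copy annotated as the pseudogene *Pcna-ps2* had 185 to 519 in OF1 and 0 to 4.36 in C57 libraries, and reads shared between them could be assigned to either. The sum of both was 1962 ± 117 (SD, n = 3) in WT and 2192 ± 367 in hemizygous OF1 mice, and 2018 ± 240 in WT and 2336 ± 169 in hemizygous C57 mice.

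For the supply of deoxynucleotides, *Rrm2*, the regulated subunit of ribonucleotide reductase, had 524, 399 and 179 in WT and 583, 702 and 802 in hemizygous OF1 mice, and 574, 835 and 1204 in WT and 1035, 888 and 879 in hemizygous C57 mice. No OF1 WT library reached the lowest OF1-*En1*+/- library (0.93 ± 0.37, edgeR adjusted p = 0.506). The large subunit *Rrm1* (0.24 ± 0.26) and thymidylate synthase, *Tyms* (0.42 ± 0.31), overlapped. Of the reads of *Tyms*, 58.4% were in coding transcript models, as were 64.2% of those of *Smc4* and 41.8% of those of *Cenpa*.

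**Figure D3:**
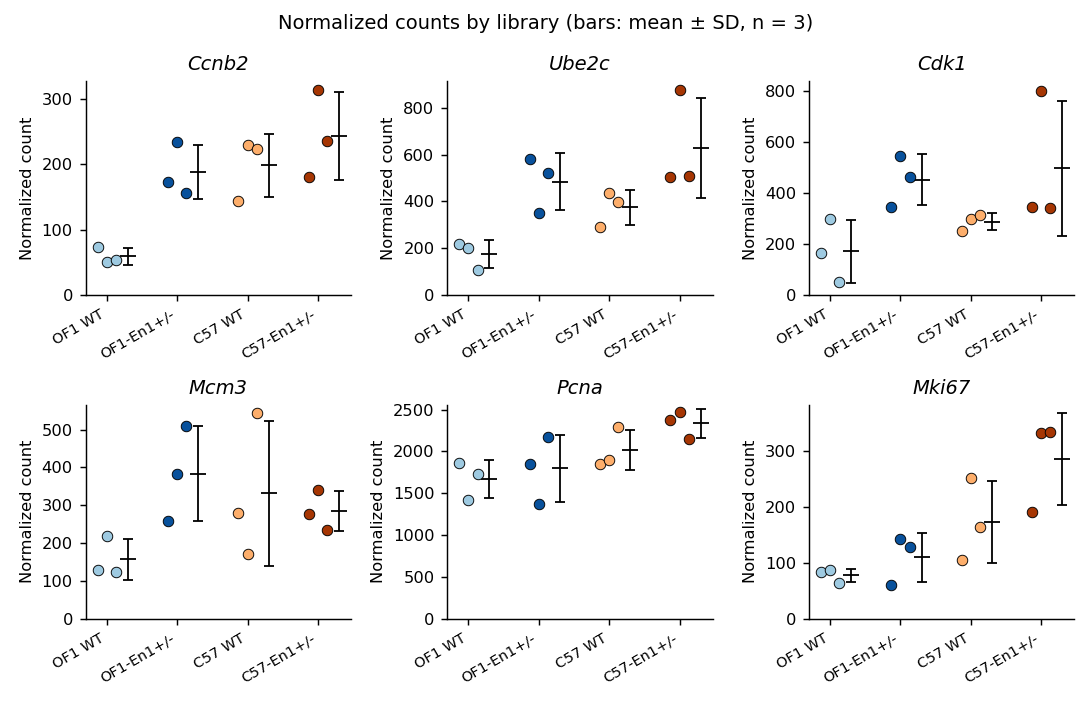
Each panel is 1 gene, with the normalized count on a y axis from 0 and 1 point per library by group; the black bars are the mean ± SD (n = 3). *Ccnb2* and *Ube2c* are lower in all 3 OF1 WT libraries than in the other 9, while *Pcna* overlaps across the groups and *Mki67* is highest in C572 and C575.

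In C57 mice the genotypes were closer. Estimates were higher in the hemizygous mice for 32 of 38 genes (50.3% of all tested genes), with a median log2 fold change of 0.28 against 0.01 over all tested genes, 0.19 for the S phase and 0.36 for the mitotic genes. These medians moved with single libraries. Without C572 they were 0.12 for the S phase and 0.11 for the mitotic genes, without C572S 0.15 and 0.45, and without C5713 0.13 and 0.66. The S phase median was 0.07 without C5710 and 0.37 without C5743. None of the 38 passed in edgeR (smallest adjusted p 0.52, 0% of all tested genes called) or in DESeq2 (0.272% of all genes called higher), and 3 had an unadjusted p under 0.05 in edgeR (7.89%, against 5.35% of all). Groups did not overlap for 6 genes (15.8%, against 6.2%), and without C572 for 7 (against 9.53% of all genes for 2 libraries against 3). Without C572, SW21, SW22, SWB or C5710, 1 gene had an unadjusted p under 0.05, and without C5743 0 did. Markers of some other cells were higher too. The summed TPM of the endothelial markers was 120 to 179 in WT and 168 to 257 in hemizygous C57 mice (11 of 11 higher, 4 without overlap). That of pericytes, mural cells and fibroblasts was 29.7 to 74.9 and 48.5 to 81.9 (11 of 13 higher, 5 without overlap), and that of red blood cells 1648 to 1816 and 2315 to 5555 (5 of 5 tested higher, 4 without overlap), against 6.2% of all genes without overlap. Precursors of oligodendrocytes (8 of 10 higher) had 95.3 to 158 and 99.0 to 144. Estimates for markers of myelinating oligodendrocytes (9 of 9) and microglia (9 of 11) were mostly higher. The sums of the former were 329, 705 and 231 in WT and 375, 3219 and 200 in hemizygous mice. Those of microglia were 220, 236 and 222 in WT and 230, 301 and 184 in hemizygous mice. In both lists C572 was the highest of the C57 libraries, and C575 was below every C57 WT library. Astrocyte markers were 5 higher and 4 lower, and those of neural progenitors 4 and 4. The dopaminergic markers were lower (13 of 13), at 87.9 to 10807 and 35.2 to 174. Markers of subthalamic and posterior hypothalamic neurons (8 of 9) were lower as well, at 381 to 3056 and 128 to 980. Those of ependymal cells were estimated lower (5 of 5), with sums of 82.8, 2.13 and 3.64 in WT and 7.23, 5.39 and 6.34 in hemizygous mice. That direction rests on C5710, since C572S and C5743 were below every C57-*En1*+/- library. The part of all these markers in the differences of the division genes was not tested.

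*Smc4* had the smallest p of these, with 415, 291 and 324 in WT and 299, 386 and 372 in hemizygous OF1 mice, and 257, 399 and 190.0 in WT and 522, 516 and 485 in hemizygous C57 mice (0.91 ± 0.31, edgeR adjusted p = 0.52). All C57-*En1*+/- values lay above the other 9, and DESeq2 called it when C572S was left out. In TPM the C57-*En1*+/- libraries were at 6.64, 7.62 and 6.89, above the C57 WT ones (4.85, 6.12 and 2.96), but SW31 was at 10.4. The transcript model with the most reads of *Smc4* is one of nonsense-mediated decay (35.2% of its reads). Coding models held 46.4, 86.6 and 91.5% of its reads in C57 WT and 11.9, 66.1 and 75.5% in C57-*En1*+/- mice. The next were *Ube2c* (0.81 ± 0.36, edgeR adjusted p = 0.557), *Birc5* (0.87 ± 0.39, 0.557) and *Cenpf* (0.99 ± 0.51, 0.607). *Mcm6* had the lowest estimate (−0.60 ± 0.37), with C5710 at 1667 above all other libraries.

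**Figure D4:**
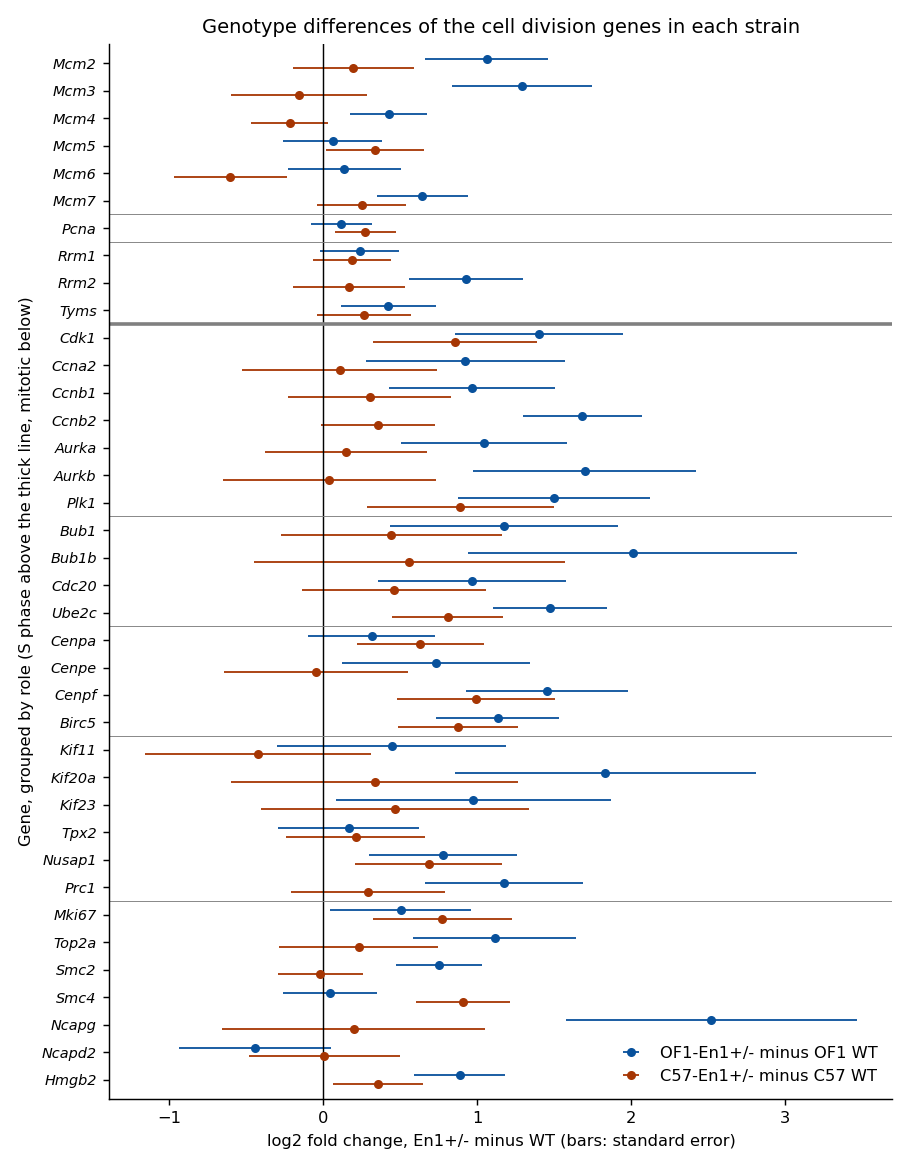
For each gene on the y axis, the points are the log2 fold changes of En1+/- minus WT mice in OF1 (blue) and C57 (brown) on the x axis, and the bars are standard errors. The blue points of the mitotic genes lie mostly near 1 and the brown ones nearer to 0, with *Smc4*, *Cenpa* and *Mki67* among those whose brown point is further right.

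The difference between the genotype effects was tested as an interaction. It was lower in C57 for 31 of 38 genes (49.5% of all), with a median of −0.65 against 0.01 over all tested genes. None of the 38 passed in edgeR (smallest adjusted p 0.66, 0% of all called) or in DESeq2 (0.0999% of all called lower), and 2 had an unadjusted p under 0.05 (5.26%, against 2.79% of all), *Ccnb2* (−1.33 ± 0.53, edgeR adjusted p = 0.66) and *Mcm3* (−1.45 ± 0.63, 0.681). The median of the mitotic genes was −0.67, and −0.51 without SW22, −0.55 without C572S and −0.94 without C572, while that of the S phase genes was −0.52, and −0.53, −0.51 and −0.65. The genotype effect was not shown to differ between the strains for any of them. Without SW7 and without C572, 4 and 5 genes had an unadjusted p under 0.05, without SWB 1 did, and without SWG, SW22, C5743, C5713 or C575 0 did. Without SW31, DESeq2 called the checkpoint kinase *Bub1b* and the median of the mitotic genes was −1.20.

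The strains were compared within each genotype. The comparison of WT mice uses the same OF1 WT libraries as that of the OF1 genotypes, so the 2 are not independent. Estimates were lower in OF1 WT than in C57 WT mice for 36 of 38 genes (50.7% of all), with a median log2 fold change of −1.02 against −0.01 over all genes, −0.37 for the S phase and −1.12 for the mitotic genes, or −0.37 and −0.92 without C572S. None of the 38 passed in edgeR (smallest adjusted p 0.0659, 1.02% of all tested genes called). DESeq2 called *Ccnb2* (0.966% of all called lower), and 14 genes had an unadjusted p under 0.05 and were lower (36.8%, against 3.99%). Groups did not overlap for 19 genes (50%, against 8.57%). Without SWG, 6 genes had an unadjusted p under 0.05, without C572S or C5743 9 did, and without SW31 DESeq2 called 7. Without SW7, SW21, C5710 or C5713 it called 2.

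*Ccnb2* had the smallest p (−1.71 ± 0.38, adjusted p = 0.0659 in edgeR and 0.000891 in DESeq2). It was followed by *Rrm2* (−1.19 ± 0.37, edgeR adjusted p = 0.291), *Ncapg* (−2.87 ± 0.95, 0.335) and *Aurka* (−1.62 ± 0.54, 0.351). *Aurka*, the kinase of the spindle poles, had 123, 77.2 and 41.1 in WT and 153, 151 and 188 in hemizygous OF1 mice, and 141, 387 and 236 in WT and 128, 409.7 and 273 in hemizygous C57 mice. None of these overlapped between the WT groups. *Mcm5* (0.06 ± 0.32) and *Smc4* (0.33 ± 0.30) were the 2 genes with an estimate above 0. Between these groups the summed TPM of the endothelial markers was 81.6 to 198 and 120 to 179, with 3 of 11 higher and 8 lower in OF1 WT. That of the precursors of oligodendrocytes was 95.1 to 134 and 95.3 to 158, yet 7 of 10 were estimated higher in OF1 WT (median 0.13). Markers of myelinating oligodendrocytes, at 377 to 837 and 231 to 705, were higher for 9 of 9 (median 0.83). Those of microglia were 6 higher and 5 lower, and those of astrocytes 3 higher and 6 lower. Neural progenitor markers had 40.9 to 74.2 and 61.9 to 148, with 7 of 8 tested lower in OF1 WT (median −0.52). Dopaminergic markers had 47.7 to 66.5 and 87.9 to 10807, with 13 of 13 lower, and the subthalamic and posterior hypothalamic ones 902 to 3246 and 381 to 3056, with 8 of 9 higher. The part of these markers in the differences of the division genes was not tested.

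Between the hemizygous groups the strains were closer. Estimates were lower in OF1-*En1*+/- than in C57-*En1*+/- mice for 33 of 38 genes (52.2% of all), with a median of −0.37 against −0.02 over all genes, −0.05 for the S phase and −0.41 for the mitotic genes. Without C572 these were −0.07 and −0.21, and without SW22 0.05 and −0.58. None of the 38 passed in edgeR (smallest adjusted p 0.37, 0.966% of all tested genes called) or in DESeq2 (0.999% of all called lower). Of the 38, 2 had an unadjusted p under 0.05 (5.26%, against 4.36%), and 6 did not overlap (15.8%, against 6.75%), or 7 without C572 (against 13.3% of all). Without C572, SW22, C5710 or C5743, 1 had an unadjusted p under 0.05. *Mki67* had the smallest p (−1.38 ± 0.46, edgeR adjusted p = 0.37), then *Birc5* (−0.90 ± 0.39, 0.585), *Pcna* (−0.38 ± 0.20, 0.685) and *Tpx2* (−0.82 ± 0.46, 0.717). *Tpx2* had 224, 244 and 153 in WT and 350.3, 102 and 243 in hemizygous OF1 mice, and 314, 245 and 544 in WT and 292, 509 and 422 in hemizygous C57 mice, with SW22 the lowest of the 12. For *Mki67* every C57-*En1*+/- library was above every OF1-*En1*+/- library.

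Mitotic promoters with and without a CHR match did not stand far apart in these values. The median log2 fold change between the OF1 genotypes was 1.18 over the 15 with a match and 0.92 over the 13 without, and between the WT strains it was −1.05 and −1.14. *Ncapg* and *Aurka* are without a CHR match, and *Smc4*, at 0.04 ± 0.31 between the OF1 genotypes, has 2. For the 4 S phase genes with an E2F match the median between the OF1 genotypes was 0.28, against 0.53 for the other 6, and between the WT strains −0.59 against −0.28.

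The other lists hold the rest of the cell cycle machinery. Of 64 other replication genes (origin recognition, polymerases, clamp loader and the like), 34 were higher and 30 lower between the OF1 genotypes (median 0.04), and DESeq2 called *Gins3* and *Cdca7* higher (0.611% of all tested genes were called higher). *Gins3*, a subunit of the GINS complex of the replication fork, had 63.7, 147 and 81.0 in WT and 259, 244 and 392 in hemizygous OF1 mice, and 113, 71.2 and 139 in WT and 248, 339.7 and 264 in hemizygous C57 mice (1.61 ± 0.42, adjusted p = 0.444 in edgeR and 0.0314 in DESeq2). It was above WT in every hemizygous library of both strains (1.46 ± 0.42 in C57, DESeq2 adjusted p = 0.0987). *Cdca7* had 2.19 ± 0.52 (DESeq2 adjusted p = 0.00828) and *Rfc5*, of the clamp loader, −0.85 ± 0.29 (0.174).

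Of 65 tested other mitosis genes, 53 were higher between the OF1 genotypes (median 0.47), and 9 had an unadjusted p under 0.05 (13.8%, against 4.7% of all). DESeq2 called the centrosomal kinase *Nek2*, with 9.44, 0 and 7.77 in WT and 31.7, 99.99 and 72.1 in hemizygous OF1 mice, and 129.8, 119 and 59.6 in WT and 55.9, 92.0 and 155 in hemizygous C57 mice (adjusted p = 0.00763). *Gtse1* (2.57 ± 0.75, DESeq2 adjusted p = 0.0595) and *Ckap2* (1.71 ± 0.55, 0.0927) came next. Between the WT strains, 48 of the 65 were lower in OF1 WT (median −0.57), and DESeq2 called *Nek2*, *Gtse1* and *Ckap2* lower (0.966% of all tested genes were called lower). Of 64 other replication genes, 31 were lower and 33 higher there (median 0.04), and *Rpa3*, a subunit of the single-strand binding protein RPA, was higher in OF1 WT at 954 against 273 (log2 fold change 1.85 ± 0.29, edgeR adjusted p = 0.00657).

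Of 21 tested genes of cell cycle entry and exit, 13 were higher and 8 lower between the OF1 genotypes (median 0.10), and 0 passed in edgeR or DESeq2, with 0 at an unadjusted p under 0.05. Those with the smallest p were the inhibitor *Cdkn2c* (1.27 ± 0.62, edgeR adjusted p = 0.558), *Cdk2* (0.91 ± 0.46, 0.569) and *E2f5* (0.55 ± 0.33, 0.635).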

How the data were processed

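RNA-seq of 12 libraries, 1 mouse each, was analysed in 4 groups of 3. Per the labels and the methods of the study, the authors amplified RNA with the SMART-Seq v4 kit, made unstranded Nextera XT libraries and quantified transcripts of GRCm39 with Salmon. They deposited estimated counts and TPM per transcript. Here, 139555 of 140790 transcripts (99.12%) were matched by identifier to a GENCODE annotation of the same build, and the expected counts were summed per gene and rounded.

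The 18017 genes averaging 10 or more normalized counts were fitted together in edgeR 4.0.16 (TMM factors, robust quasi-likelihood test, 1 mean per group, all 12 libraries, R 4.3.3), with Benjamini-Hochberg adjustment at 0.05. Log2 CPM had a prior count of 2. The comparisons were of the genotypes within strain, of the strains within genotype, and their interaction. Tests were two-sided, and p-values measure the spread between mice. An exact permutation test of 3 against 3 cannot give a p below 0.1. DESeq2 1.42.0, limma 3.58.1 (voom with quality weights), relative log expression factors, transcript length offsets, other filters and leaving out libraries were alternatives. DESeq2 without single libraries, non-overlap and the order of group means without them were added after seeing the data. The script for the tests was tested on simulated data. The depth was 13538864 to 168741283 estimated reads, and every pair of libraries of a group differed by more than sampling noise.

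The members and all gene lists were chosen with earlier results of these data known. The text gives each library for 10 widely used members and for the 4 with the smallest p of each comparison or called by DESeq2, and it names, with estimates, the 3 genes of the other cell cycle lists with the smallest p between the OF1 genotypes and those called by DESeq2. Promoters were read from GRCm39 by the canonical transcript of the annotation. Python 3.11.15 with pandas 2.3.3, numpy 2.4.6 and matplotlib 3.10.9 served for the rest.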

Additional observations from a re-analysis of the deposited data

Results flagged for a closer look

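*E2f5*, a transcription factor of the E2F family that is not among the 38 genes, was above OF1 WT in every OF1-*En1*+/- library (265.8, 223 and 214 against 191, 186 and 103) and below C57 WT in every C57-*En1*+/- library (201, 197 and 190.4 against 220.4, 226 and 219). The genotype effects thus had opposite directions without overlap in either strain, although the estimate in C57 was only −0.118 ± 0.325. Over all tested genes, 7.68% were higher without overlap in OF1 and 8.08% were lower without overlap in C57. The interaction was −0.67 ± 0.46 on the log2 scale, with an adjusted p of 0.785 in edgeR, so a difference between the strains was not shown. None of the 38 genes had genotype effects of opposite direction without overlap, and none passed the test of the interaction. The flagging held no check of its own on single outlying libraries, while the comparisons were refitted with each library left out in turn.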

How the results depend on the processing

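No paired analysis was possible because the labels give no replicate numbers that groups share. Of 1105 values under alternatives, 1046 were classed as the same. For the estimate of a gene this meant the same direction and side of the threshold. For a median or level it meant a change within the SD inside groups, and for a count a limited fold change. Some of these values come from leaving out a library that the comparison does not hold. DESeq2 called 2 members between the OF1 genotypes (*Ccnb2* at 1.70 and *Ube2c* at 1.49) and 1 between the WT strains (*Ccnb2*, −1.72), where edgeR called 0. With SW22 and C572S left out together, DESeq2 called 1 between the OF1 genotypes, and the members at an unadjusted p under 0.05 in edgeR were 5 there and 1 between the hemizygous strains. Without the filter on low counts the latter count was 1, and that between the C57 genotypes was 1. With limma voom there were 22 lower between the WT strains and 10 in the interaction. On log2(TPM + 1), the mitotic level relative to OF1 WT was higher by 0.78 for OF1-*En1*+/-, 0.86 for C57 WT and 1.02 for C57-*En1*+/-, and the mitotic minus the S phase level by 0.18, 0.18 and 0.52. The cause of these changes was not tested, apart from the loss of libraries. Leaving out 1 library at a time gave 6 to 20 members at an unadjusted p under 0.05 between the OF1 genotypes, 0 to 4 between the C57 genotypes, 6 to 17 between the WT strains, 1 to 2 between the hemizygous strains and 0 to 5 in the interaction. DESeq2 called 0 to 7, 0 to 1, 1 to 7, 0 and 0 to 1 in the same order. For the counts at an unadjusted p under alternatives, and for DESeq2 without libraries, the share of all tested genes was not computed. Such counts are therefore not set against all genes. The median interaction of the mitotic genes was −1.20 to −0.38. Between the OF1 genotypes, *Mcm5* ran from −0.089 to 0.353, below 0 without SW7 (−0.042), SWG or SWB (−0.079), and *Pcna* from −0.038, without SWB, to 0.269. The reads behind the members were fewest in OF1 WT, and whether this limits the comparisons with that group was not tested.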
